A study of Homo sapiens with 6 samples.

Results

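The 7SL pseudogene copies are gene copies of the 7SL RNA that are scattered over the human genome and carry names of the form RN7SL, a number and P. The transcript table held 600 such copies among 63190 gene identifiers, found through their gene identifier and symbol. The 240 copies described here were selected on their level in the control libraries, with a 3-control mean of 1 RPKM or more (reads per kilobase of transcript, scaled to library size). Because a copy had to be high in the controls to be included, and the control level enters every difference between the conditions, the differences of the copies are given as a description and were not tested as a group.

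7SL RNA is the RNA component of the signal recognition particle, which binds signal peptides as they leave the ribosome and brings the ribosome to the endoplasmic reticulum. It is transcribed by RNA polymerase III from a few genes, among them RN7SL1 and RN7SL2. Its ends form the Alu domain, which slows translation, and its central part forms the S domain, which recognizes the signal peptide. Reverse transcription of 7SL RNA has left many copies in primate genomes, and the Alu repeats descend from a 7SL RNA that lost its central part.

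The libraries came from HEK293T-Rex cells, a human embryonic kidney line with a tetracycline repressor, which the labels name HEK293. The D391N group (3 libraries) overexpressed DIS3L2 with the D391N substitution in its catalytic site, from a stably integrated construct that the study's methods induced with 100 ng/ml doxycycline for 24 h, and the control group (3 libraries) was the line without this construct. Values of a group are given in the order of replicates 1, 2 and 3. DIS3L2 is an exonuclease that degrades RNAs with oligo(U) tails from the 3′ end. The D391N libraries share 1 line and the controls another, so construct and line effects cannot be told apart. The study's text does not say whether the controls received doxycycline, or which libraries shared a sequencing lane of 3, so that effects of either may coincide with the condition. Nothing states that the replicates were separate cultures, and p-values then measure the spread between these libraries only.

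The copies were compared with RN7SL2, the full RNA, over its whole length of 297 bases and over bases 101 to 250, its central part. The transcripts compared are those of GRCh37, found by transcript identifier, whereas the deposited levels refer to GRCh38 transcripts. RN7SL4P, the copy with the highest control level, matched 92.7% of the central part, RN7SL5P, the closest copy there, 94% and RN7SL674P 78.7%. RN7SL8P and RN7SL629P matched 85.3% and 72% of it, and RN7SL121P and RN7SL602P 48% and 50%.

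The members fell into 2 sequence groups. The identity to the central part of RN7SL2 ran from 44% to 94%, with 64 members at or below 65% and 176 above it. Between 60% and 70% lay 5 members, against 131 between 80% and 90%. The 176 copies are called copies with the central part kept, and the 64 copies with the central part diverged. These names refer to the identity only. Whether the central part of the 64 copies was changed or missing was not examined. The split was made on sequence alone, after the levels had been seen, and no test is attached to it. Over the ends of 7SL RNA, the median identity was 72.5% in the diverged copies and 81.6% in the copies with the central part kept. Over the center, on which the groups were split, it was 51.3% and 83.3%. Of the 70 diverged copies among all 600, 64 passed the level rule (91.4%), compared with 176 of 530 copies with the central part kept (33.2%). Their median control level was also higher, at 6.79 RPKM against 2.09 RPKM. Member transcripts were 235 to 337 nt long, except for RN7SL832P, annotated as a lncRNA of 1756 nt.

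The gene of the construct, DIS3L2, summed to 370, 467 and 513 RPKM in D391N and to 11.8, 12.9 and 14.6 RPKM in the controls, a mean of 450 ± 73.0 against 13.1 ± 1.396 RPKM (SD, n = 3 each; two-sided exact permutation p = 0.10, the smallest that 3 against 3 allows). The D391N libraries were less alike than the controls: across tested transcripts, correlations of log2 levels were 0.659 to 0.799 within D391N and 0.891 to 0.918 within controls. Relative depth ran from 0.604 in D391N replicate 2 to 1 in control replicate 2, the deepest. Of the HEK293 markers, LIN28B was at 15.8 to 31.9 RPKM and NEFL at 26.9 to 88.0 RPKM, whereas PAX2 and NEFM stayed under 2 RPKM, as did PTPRC of blood cells and ALB of liver in the 6 libraries.

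RN7SL1 and RN7SL2, the genes of the functional RNA, stood far above every pseudogene copy. RN7SL1 was at 17870, 9199 and 10330 RPKM in the D391N libraries and at 20630, 22220 and 19640 RPKM in the controls. The D391N libraries all lay under the controls, and replicate 1 was the nearest to the controls. The log2 difference of D391N minus control was -0.80 (SE 0.51), which did not pass (limma, adjusted p = 0.434), and quantile normalization turned its sign (0.07). RN7SL2 was at 8622, 3550 and 5123 RPKM in D391N and 15590, 17370 and 13530 RPKM in the controls, again without overlap. Its log2 difference was -1.52 (SE 0.50; limma, adjusted p = 0.215), quantile normalization left no difference (0.00), and it passed only without D391N replicate 1 (adjusted p = 0.0438). Quantile normalization gives equal ranks equal values in every library, so it cannot show a difference in a transcript that keeps its rank. Both genes had an exact permutation p of 0.10. In bulk RNA, fewer cells with a transcript and less of it per cell cannot be told apart. In each gene replicate 2 of D391N was the lowest library.

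A few copies made much of the summed control level. RN7SL4P was at 655, 653 and 747 RPKM in the controls (mean 685 ± 53.5, SD, n = 3), and RN7SL396P, on chromosome 8, at 373, 450 and 378 RPKM (mean 400 ± 43.3). Together they made 38.7% to 41.7% of the summed level of the 240 members in each control. The median member was at 2.45 to 2.77 RPKM. In D391N replicate 1 RN7SL4P stood at 1499 RPKM, above each control, while replicates 2 and 3 were at 236 and 252 RPKM, below each control. RN7SL396P was at 292, 69.2 and 113 RPKM in the D391N libraries, below each control. Replicates 2 and 3 of D391N were thus well below the controls for both copies.

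**Figure D1:**
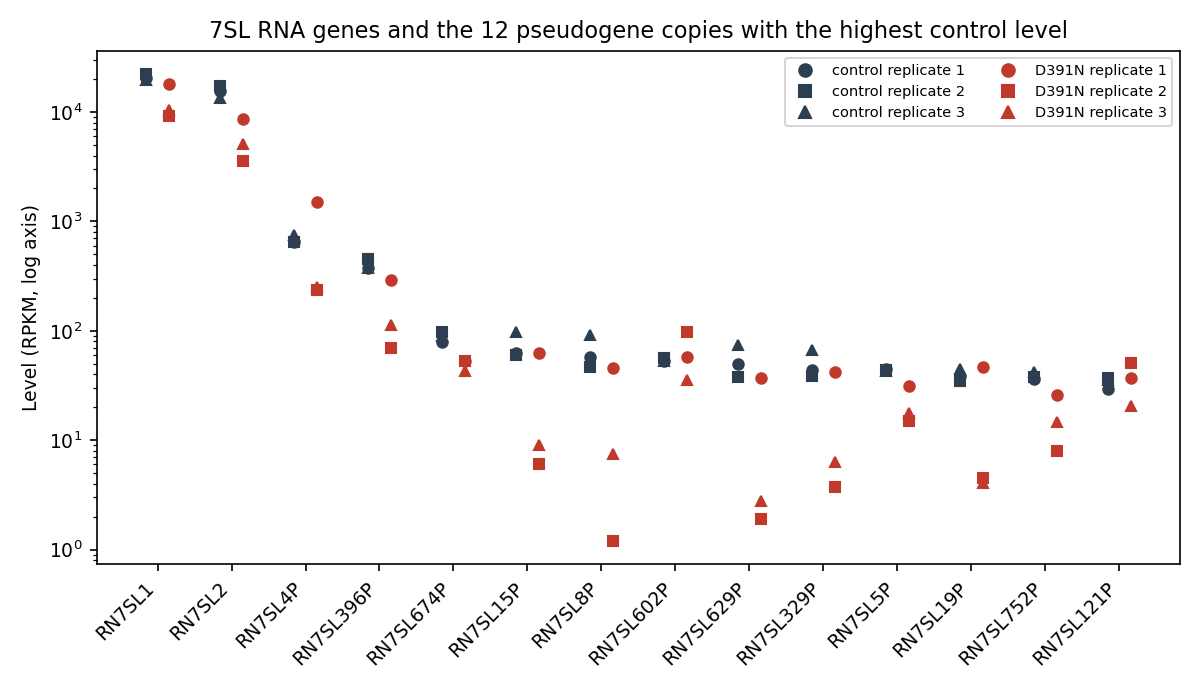
Level in RPKM (log axis) of RN7SL1, RN7SL2 and the 12 pseudogene copies with the highest control level in each library, controls in dark blue on the left and D391N in red on the right, with 1 marker shape per replicate. RN7SL15P, RN7SL8P, RN7SL629P, RN7SL329P and RN7SL19P have D391N replicates 2 and 3 far below the controls and replicate 1 close to them, and RN7SL602P and RN7SL121P do not.

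Copies with the central part kept had the widest differences. RN7SL8P was at 45.4, 1.20 and 7.50 RPKM in the D391N libraries and at 57.2, 47.1 and 91.6 RPKM in the controls. RN7SL629P was at 37.03, 1.89 and 2.77 RPKM in D391N and at 49.8, 37.9 and 73.5 RPKM in the controls. RN7SL15P was at 63.1, 6.05 and 8.98 RPKM in D391N and at 62.5, 60.1 and 96.7 RPKM in the controls. In the 3 copies D391N replicates 2 and 3 lay far under the controls, whereas replicate 1 lay within or just below their range. RN7SL329P and RN7SL19P had the same gap between replicate 1 and the other D391N libraries, with D391N replicate 1 at 42.0 and 46.3 RPKM, replicate 2 at 3.70 and 4.53 RPKM, and controls between 34.6 and 66.3 RPKM. RN7SL813P had the lowest log2 difference of all members, -3.29, from 18.0, 0.362 and 3.19 RPKM in D391N and 26.3, 21.7 and 44.2 RPKM in the controls.

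RN7SL674P, RN7SL5P and RN7SL752P also kept the central part. Replicate 1 of D391N was below each control in them, as it was in RN7SL8P, RN7SL629P and RN7SL813P. RN7SL674P was at 52.5, 52.6 and 42.8 RPKM in D391N and at 79.8, 96.6 and 90.2 RPKM in the controls, so that its D391N libraries were alike (mean 49.3 ± 5.61 against 88.9 ± 8.52 RPKM). RN7SL5P was at 31.1, 15 and 17.9 RPKM in D391N and at 44.6, 43.5 and 42.7 RPKM in the controls. RN7SL752P was at 25.7, 7.95 and 14.8 RPKM in D391N and at 36.6, 37.6 and 42.1 RPKM in the controls. The groups did not overlap for any of these 3 copies, and in RN7SL5P and RN7SL752P replicate 1 was the highest D391N library.

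The diverged copies followed another order of libraries. RN7SL602P was at 57.2, 96.7 and 35.2 RPKM in the D391N libraries and at 53.2, 55.9 and 52.5 RPKM in the controls. RN7SL121P was at 37.01, 51.1 and 20.6 RPKM in D391N and at 29.7, 37.4 and 35.8 RPKM in the controls. In both, D391N replicate 2 was above the controls and replicate 3 below them. RN7SL676P had the highest log2 difference of the members, 2.63, with 8.04, 14.5 and 5.40 RPKM in D391N and 1.07, 2.42 and 0.838 RPKM in the controls. RN7SL190P followed at 1.61, with 3.84, 7.81 and 2.94 RPKM in D391N and 0.788, 1.75 and 1.94 RPKM in the controls. With RN7SL455P, named after its values were seen, they were the 3 members whose D391N libraries lay above each control.

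Over the members, the median log2 difference was -0.38 (181 lower and 59 higher; 171 and 166 lower under median centring and quantile normalization), beside -0.19 over the 54214 transcripts picked by the same control rule and -0.07 over the 54671 tested ones. The copies with the central part kept had a median of -0.64 (148 of 176 lower), which was -0.57 (143 lower) under median centring and -0.47 (133 lower) under quantile normalization. This median was smaller where the control level did not choose the copies, at -0.33 for the 134 copies chosen by the D391N mean and -0.24 for all 530 with no level rule. The D391N mean enters the difference as well. The 530 include copies under the level rule (median control level 0.268 RPKM over all 360 such copies), where the added 0.1 RPKM understates fold changes. The diverged copies had a median of -0.01 (33 of 64 lower), which turned to 0.06 under median centring. The libraries differed within each group. The medians of the group with the central part kept were -0.40, -0.42 and -1.22 in the D391N libraries relative to the control mean, and those of the diverged group were -0.08, 0.78 and -0.78. In D391N replicate 2, 5 of 64 diverged copies were below their control mean, and in replicate 3, 58 of 64.

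**Figure D2:**
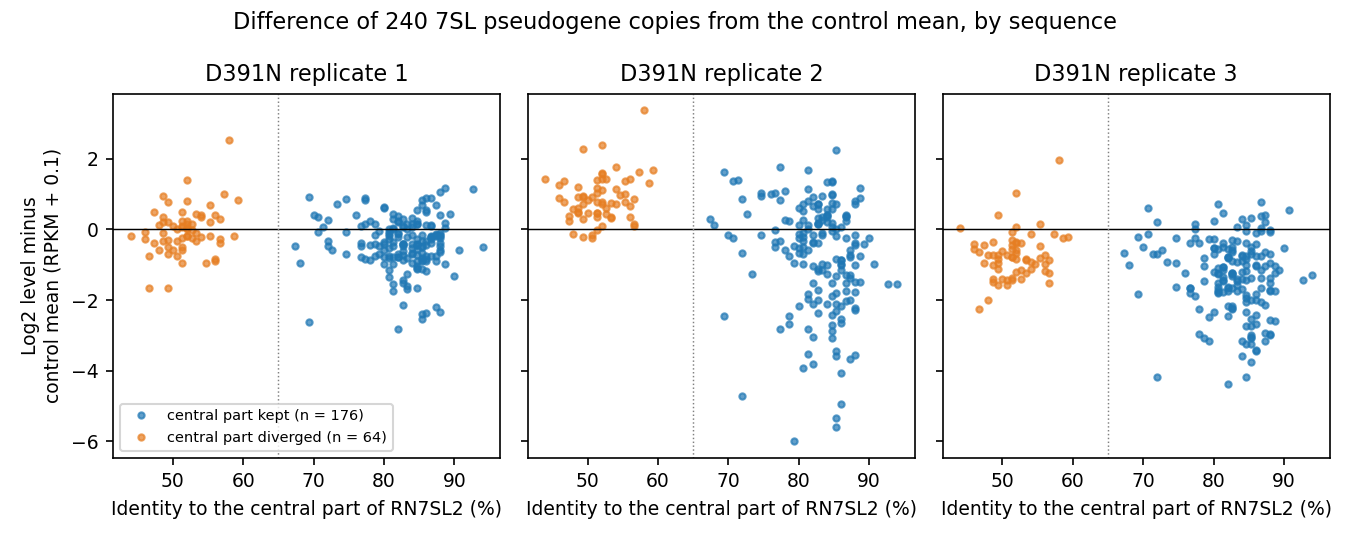
Identity of each member to bases 101 to 250 of RN7SL2 (x axis, %) against its log2 level minus the control mean (y axis, log2 of RPKM + 0.1), in 1 panel per D391N library, with the 65% split dotted. The 2 groups overlap in each panel, and in replicate 2 the diverged copies lie mostly above 0 (5 of 64 below) while the kept copies reach down to -5.99 with 112 of 176 below 0.

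Across the 240 members, the Spearman correlation of the central identity with the log2 difference was -0.42, and with the single D391N libraries it was -0.17, -0.52 and -0.25. These points share the same libraries. Within the groups, the correlation was -0.165 over the 176 copies with the central part kept and 0.215 over the 64 diverged copies. Among the copies with the central part kept, the difference varied with level. The 31 copies that averaged 5 RPKM or more across the libraries had a median of -1.44. It was -0.41 for the 50 copies between 2 and 5 RPKM and -0.59 for the 95 below 2 RPKM. The 31 copies were at -0.47, -2.16 and -1.85 in the D391N libraries. The 38 diverged copies of that level were at -0.03, 0.78 and -0.78.

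In 48 members each D391N library was below each control (20.0%), beside 18.7% of all transcripts picked by the same rule. They were 47 of the 176 copies with the central part kept (26.7%) and RN7SL488P alone among the diverged copies. In 3 members each D391N library was above each control (1.25%), beside 8.07% of all such transcripts. A difference of over 4-fold below control was found in 22 members, all with the central part kept (9.17% of members), beside 4.29% of all such transcripts. Without D391N replicate 1, 2 or 3 the count was 37, 16 or 14 members, beside 7.63%, 2.68% and 5.2% of all such transcripts, and under quantile normalization it was 16. The level rule used the controls of this same contrast, so these shares describe the members only.

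Of the 240 members, 216 averaged 1 RPKM or more across all libraries and were tested, and 24 were not. None of the 216 passed (limma, smallest adjusted p = 0.114), where 33 of all 54671 tested transcripts did (0.0604%). At an unadjusted p under 0.05, 40 members were lower and 2 higher, which is 19.4% of those tested, beside 17.6% of all transcripts. Without D391N replicate 1, 33 members were called lower and 1 higher by limma, beside 9.07% of all transcripts. The count of calls depended on that library.

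The summed level of the members was 3149, 1826 and 1032 RPKM in D391N, compared with 2468, 2650 and 2905 RPKM in the controls. The mean was 2003 ± 1069 RPKM in D391N and 2674 ± 220 RPKM in the controls (SD, n = 3 each), with 1 D391N library above the controls and 2 below them. The log2 difference of the sum was -0.56 for the members, beside -0.46 for the sum over all transcripts picked by the same control rule. The copies with the central part kept summed to 2566, 777 and 683 RPKM in D391N and to 1945, 2024 and 2304 RPKM in the controls. The diverged copies summed to 583, 1049 and 349 RPKM in D391N and to 522, 626 and 601 RPKM in the controls. RN7SL4P alone made 47.6%, 12.9% and 24.5% of the sum of the members in D391N, against 24.6% to 26.5% in the controls. The high sums of D391N replicate 1 rested on this copy. Without RN7SL4P, replicate 1 was below each control, both for the members and for the copies with the central part kept. The log2 difference of the members' sum was then -0.64. As a share of RN7SL1 plus RN7SL2, the copies with the central part kept came to 9.69%, 6.10% and 4.42% in D391N and to 5.37%, 5.11% and 6.95% in the controls. The 2 groups of libraries overlapped in this share.

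**Figure D3:**
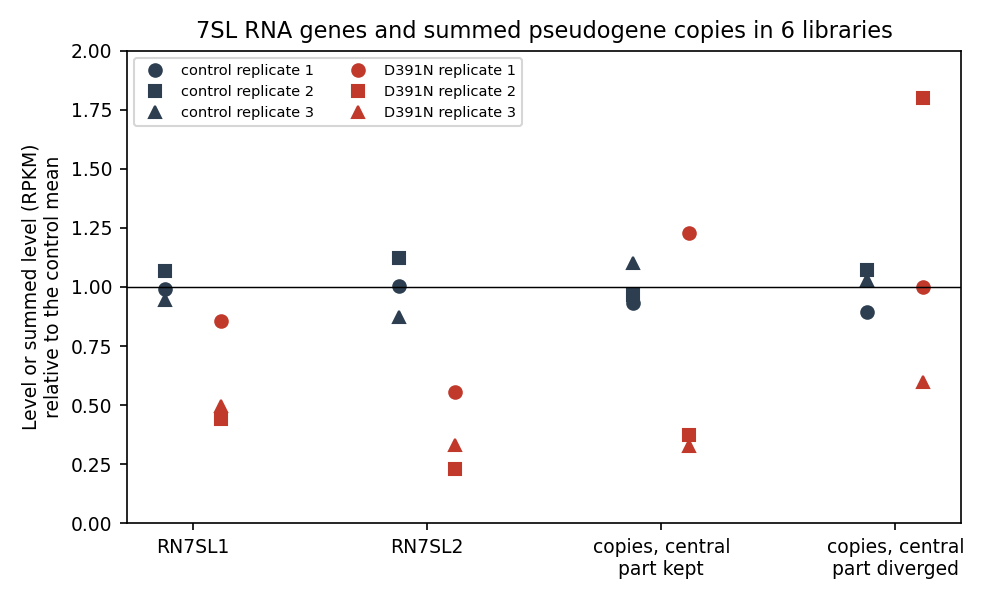
Level of RN7SL1 and RN7SL2 and summed level of the copies in each sequence group, relative to the control mean (y axis, linear from 0), with 1 point per library. D391N replicates 2 and 3 are below 1 for RN7SL1, RN7SL2 and the kept copies. Replicate 1 is above 1 for the kept copies (2566 RPKM, of which RN7SL4P alone makes 1499 RPKM). The diverged copies are highest in replicate 2 (1049 RPKM).

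The posterior variance of a level, which the authors' BitSeq software gives with each estimate, says how well the reads fixed it. Reads that match several transcripts are divided among them, so near-identical copies have larger variances than their read number alone would give. The median variance of ln RPKM over the members was 0.0781, 0.0937 and 0.134 in D391N, compared with 0.0595, 0.0559 and 0.0751 in the controls. For all transcripts picked by the same control rule it was 0.0420, 0.0494 and 0.0421 in D391N. In the controls it was 0.0305, 0.0275 and 0.0446 for these transcripts. The variances of RN7SL1 and RN7SL2 were at most 0.000125. The read number behind a level, estimated from the level of transcripts without reads, had a median of 14.4, 12.1 and 8.48 in the D391N libraries and of 18.8, 20.0 and 15.2 in the controls. Under 3 reads were 14, 35 and 41 members in D391N and 1, 1 and 3 in the controls. The level rule keeps copies with few control reads out of the members, so the selection enters this contrast. Intervals and floors of this kind cover counting and read assignment only.

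For most members the variance was close to that of counting. The product of the variance and the read number, which is 1 where counting alone sets the variance, had medians of 1.08 to 1.11 over all members, 1.04 to 1.08 in the copies with the central part kept and 1.22 to 1.30 in the diverged ones. RN7SL4P was at 2.88 to 3.43 in the controls and 6.16, 10.6 and 4.88 in the D391N libraries. Some members were higher. In control replicate 2, RN7SL694P was at 47.8, RN7SL274P at 44.1 and RN7SL718P at 4.94. The estimated read numbers of RN7SL694P and RN7SL274P there were 52.4 and 49.6. Of the 50-base windows of RN7SL4P, which is the read length, 58.4% were found unchanged in transcripts outside the 7SL genes and copies. In other 7SL copies, 38.4% of its windows were found. RN7SL5P was at 2.37 in control replicate 2, with 49.0% of its windows found in transcripts outside the 7SL genes and copies. RN7SL15P, RN7SL8P and RN7SL629P had 0% there and in other copies, and were at 1.01, 1.16 and 1.16. Window sharing and the product did not always go together. In that library RN7SL218P, with 0% in both, was at 2.77. RN7SL145P, with 100% outside the 7SL genes and copies, was at 1.05. In all, 26 of the 176 copies with the central part kept shared at least 1 exact window with a transcript outside the 7SL genes and copies. Of the 64 diverged ones, 52 did. Windows shared only with other 7SL copies or genes are not in these counts. RN7SL1 itself could not be compared this way, since its sequence was not used here.

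**Figure D4:**
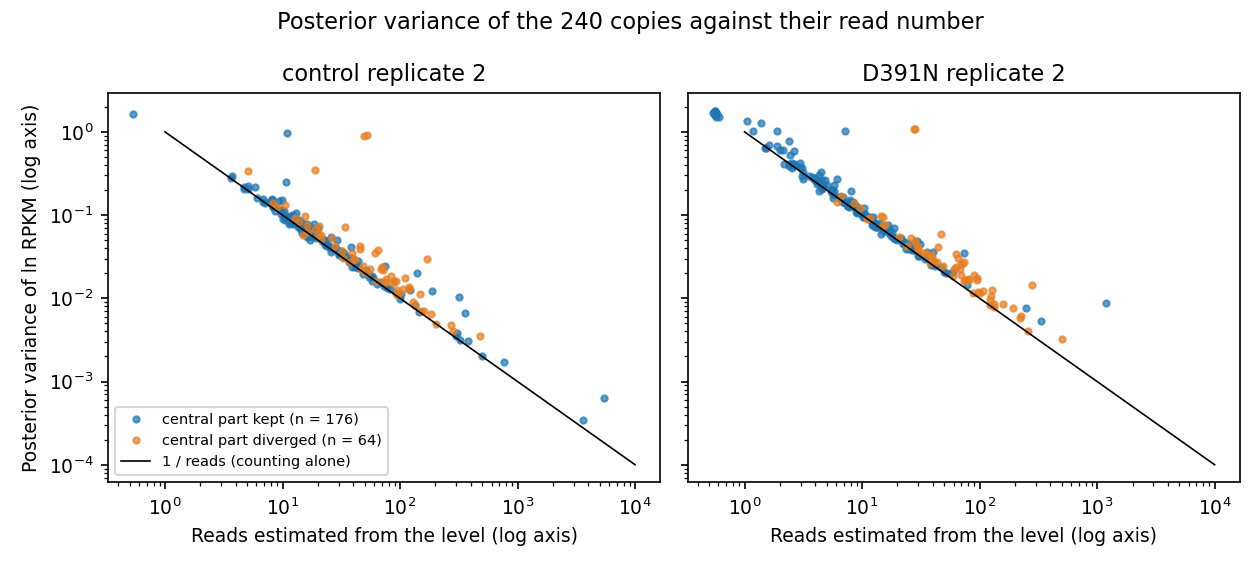
Posterior variance of ln RPKM (y axis, log) against the read number estimated from the level (x axis, log) for the 240 members in control replicate 2 and D391N replicate 2, with the line where the variance is 1 over the read number. Most members lie on the line, and in D391N replicate 2 there are 35 members under 3 reads, against 1 in control replicate 2. The members were chosen on their control level, which enters this contrast.

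The lowest mean variances were those of RN7SL396P (0.00160), RN7SL4P (0.00241) and RN7SL674P (0.00416). The highest were those of RN7SL147P (1.01), RN7SL694P (0.976) and RN7SL274P (0.970). RN7SL694P and RN7SL274P were read nearly alike in each library, for example at 6.89 and 6.53 RPKM in control replicate 2. The median variance of ln RPKM between replicates was 0.0804 in the controls and 0.382 in D391N. It exceeded the mean posterior variance in 59.2% of members in the controls and in 79.2% in D391N. For all transcripts picked by the same rule these shares were 59.5% and 74.8%. Across members, the rank correlation of levels between libraries was 0.839 to 0.869 within the controls and 0.661 to 0.794 within D391N. For the copies with the central part kept it was 0.749 to 0.800 within the controls and 0.486 to 0.663 within D391N, and for the diverged copies 0.925 to 0.941 and 0.886 to 0.920.

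The genomic setting of the copies was taken from the GRCh37 annotation. An intron of a protein-coding or lncRNA gene on the same strand held 122 of the 240 members (50.8%), the opposite strand of such a gene 53, no such gene 61 and a same-strand exon 4. Same-strand introns held 56.8% of the copies with the central part kept and 34.4% of the diverged ones. Among the copies with the central part kept, the median log2 difference was -0.47 for the 100 in same-strand introns, -0.80 for the 29 on the opposite strand and -0.72 for the 43 outside genes. RN7SL674P lay in an intron of GREB1, an estrogen-responsive gene, RN7SL329P in an intron of NSMCE2, a SUMO ligase subunit, and RN7SL629P on the opposite strand of RASA1, a GTPase activator of RAS. Reads from an unspliced host transcript and from the copy itself cannot be told apart in these values.

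The proteins that 7SL RNA works with were measured as well, from a list of 9 genes. SRP9 and SRP14 bind the Alu domain, SRP19, SRP54, SRP68 and SRP72 the S domain, SRPRA and SRPRB form the receptor, and SSB (La) binds new RNA polymerase III transcripts. Of their 54 tested transcripts, 0 were called lower and 0 higher by limma (smallest adjusted p = 0.125), and 11 had an unadjusted p under 0.05, where 17.6% of all transcripts did. The log2 difference of the summed gene level ran from -0.03 for SRP14 to 0.85 for SSB, with a median of 0.21. SSB was at 222, 605 and 574 RPKM in D391N and 242, 267 and 205 RPKM in the controls, and the groups overlapped for all 9 genes.

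Pseudogene copies of 2 other RNA polymerase III transcripts were picked by the same control rule. The 48 copies of 7SK, the RNA that holds the elongation factor P-TEFb inactive, had a median log2 difference of -1.27, and the 481 copies of U6, a spliceosomal RNA, one of -1.46. Each D391N library was below each control in 24 copies of 7SK (50%) and in 205 of U6 (42.6%), against the 18.7% of all transcripts. The medians of U6 copies were -0.78, -1.93 and -1.63 in the D391N libraries, with replicate 1 nearest to the controls, as in the copies of 7SK at -0.76, -1.70 and -1.33. The reads fixed the U6 levels poorly. In the D391N libraries 36.2%, 71.5% and 47.8% of the U6 copies had a posterior variance over 1. For the 7SL members these shares were 2.08%, 7.5% and 6.67%, so the U6 and 7SL medians are not on an equal footing. For 7SL copies with the central part kept, replicates 1 and 2 were close at the median (-0.40 and -0.42). Transcripts under 200 nt made 2.43%, 0.342% and 1.52% of the length-weighted level in D391N, compared with 2.89% to 3.18% in the controls, and the part of this in the 7SL values was not tested.

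**Figure D5:**
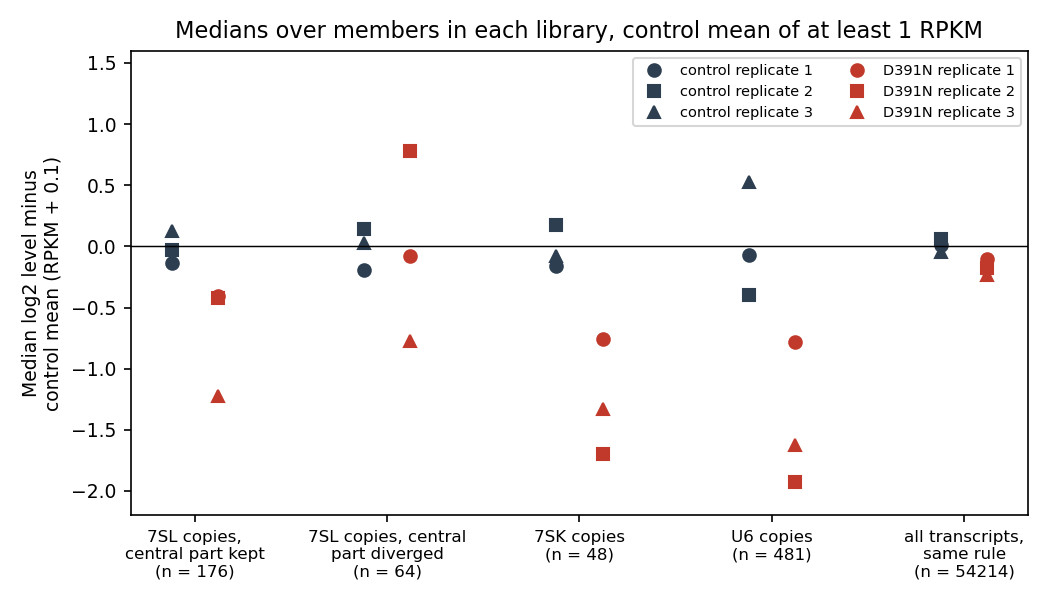
Median log2 level minus the control mean (y axis) in each library for the 7SL copies by sequence group, the 7SK and U6 copies and all transcripts picked by the same control rule, controls on the left and D391N on the right. The diverged 7SL copies are the 1 set with a D391N library above 0.5 (replicate 2, 0.78), and the U6 copies have the lowest D391N medians. In D391N replicate 2, 71.5% of the U6 copies have a posterior variance over 1.

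At the limit of the level rule, RN7SL230P, RN7SL732P and RN7SL187P were just inside, with control means of 1.01 RPKM each, and D391N means of 1.498, 0.874 and 1.01 RPKM. RN7SL494P, RN7SL72P and RN7SL615P were just outside at 0.9998, 0.996 and 0.988 RPKM, with D391N means of 0.2998, 0.223 and 0.741 RPKM. By the mean over the D391N libraries instead, 199 copies reached 1 RPKM, and their median log2 difference was -0.21.

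Of the copies with a crosslinked window in the study's list of DIS3L2-bound RNAs, 4 were in the transcript table and 1 of them was a member. RN7SL712P was at 0.257, 0.577 and 0.0836 RPKM in the D391N libraries and at 1.77, 1.33 and 1.58 RPKM in the controls, below each control. RN7SL494P was at 0.425, 0.107 and 0.367 RPKM in D391N against 1.34, 0.540 and 1.12 RPKM in the controls. RN7SL364P overlapped between the conditions at 0.845, 0.687 and 0.0960 RPKM against 0.878, 0.958 and 0.698 RPKM. RN7SL480P stayed at or under 0.221 RPKM in the 6 libraries. All 4 had few reads, with mean posterior variances from 0.465 to 1.47.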

How the data were processed

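RNA-seq of 3 D391N and 3 control libraries was analysed. Trimming of the 50-base reads by cutadapt, alignment to Ensembl transcripts (hg38) by Segemehl and estimation by BitSeq were done by the authors. For 207167 transcripts, they deposited 2 numbers a library: an estimate of RPKM as a natural log, and the posterior variance of that estimate (a score on the natural log scale). Read totals were not used here.

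The values were exponentiated and changed to log2(RPKM + 0.1), which understates fold changes of low transcripts. Transcripts averaging 1 RPKM or more across all 6 libraries entered the comparison with limma 3.58.1 in R 4.3.3 (empirical Bayes with trend, Benjamini-Hochberg adjusted p under 0.05), and single values with two-sided exact permutation tests in scipy 1.17.1. In the simulated check of this comparison (54671 transcripts), 33% of 200 shifted transcripts were recovered at a log2 shift of 3, with 0 false calls. Copies were aligned to RN7SL2 with Biopython 1.88 (global alignment, GRCh37 transcripts). The sequences themselves are not reported here. Plots used matplotlib 3.10.9.

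Relative depth was estimated from 3881 transcripts of 200 to 400 nt without reads, by their posterior variance. Symbols were matched for 88.2% of gene identifiers. RN7SL1 was named through the study's target list and RN7SL2 by transcript identifier. RN7SL3, the copy RN7SL529P and the marker PECAM1 were not matched and are not analysed here. The sequence split was chosen after seeing the data, and the members and lists were chosen with earlier results of these data known. Named copies were the 12 highest in control, those at the limit of the rule, the extremes of posterior variance and of difference, and those in the study's target list. Alternatives tried were other pseudocounts, scalings, filters and member rules, weights, limma without trend, a replicate block and each library left out; those that left out RN7SL4P or added 33 copies named by transcript identifier were chosen after seeing the data.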

Additional observations from a re-analysis of the deposited data

How the results depend on the processing

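The number of transcripts called was 33, and 52 without the trend, 17 and 18 with a minimum mean of 5 RPKM and with no filter, 142 with a pseudocount of 1 RPKM and 7 with the replicate block. Leaving out 1 library gave 2 to 4961 called transcripts, 0 to 34 called copies (34 without D391N replicate 1 and 0 without any other), and a log2 difference of -1.09 to -0.61 for RN7SL1, of -1.85 to -1.21 for RN7SL2, and of -0.96 (without D391N replicate 1) to -0.15 (without D391N replicate 3) for the summed copies. The median log2 difference of the copies was then -0.67 (without D391N replicate 2) to -0.12 (without D391N replicate 3), that of copies with the central part kept -0.80 to -0.43, and that of diverged copies -0.35 without D391N replicate 2 to 0.39 without D391N replicate 3. Quantile normalization turned RN7SL1 to 0.0687 and RN7SL2 to 0.00. It gives equal ranks equal values in every library, so a transcript that keeps its rank shows no difference. The ranks of these genes were not examined. With a control mean of at least 5 RPKM, the copies with the central part kept had a median of -1.47 (36 copies). It was -0.33 with members chosen by the D391N mean, -0.24 with no level rule and -0.38 with a pseudocount of 1 RPKM. The pseudocount, scaling, filter, block, trend and weight alternatives gave 0 called copies. Same-numbered libraries had correlations of deviations of 0.0867, 0.055 and -0.111, and the other pairs -0.133 to 0.0745. These values gave no sign of pairing by number, but 3 libraries per group cannot exclude it. The replicate block left RN7SL1 at -0.80 (limma, adjusted p = 0.573) and RN7SL2 at -1.52 (limma, adjusted p = 0.316). Few reads limited the members most in D391N, with 35 and 41 members under 3 reads in replicates 2 and 3. In control replicate 3 there were 3, at a relative depth of 0.666, between the 0.604 and 0.795 of those libraries. The level rule itself keeps copies with few control reads out of the members, so the selection enters this contrast. Over all 600 copies with no level rule, 31.5%, 39.3% and 40.7% had a posterior variance over 1 in D391N. In the controls the shares were 26%, 23.7% and 26.5%.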
